A study of Mus musculus with 9 samples.

Results

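The heterogeneous nuclear ribonucleoproteins (hnRNPs) and the RNA-binding motif (Rbm) proteins were examined as 1 set of 51 genes. The members were the protein-coding genes in both deposited tables whose GENCODE M1 symbol began with Hnrnp, or with Rbm and then a digit or the letter x, and they made up 51 of the 13259 genes found in both tables. There were 18 hnRNP genes and 33 Rbm genes, and 1 symbol, *Rbm15b*, belonged to 2 separate gene identifiers. RNA sequencing had been done on 9 libraries of AML12 cells, a mouse hepatocyte line, with 3 libraries in each of 3 groups. One group carried a control shRNA, and the other two carried shRNA 1 or shRNA 2 against *Srrm2*, which encodes a scaffold protein of nuclear speckles (NSs). Both hairpins were delivered by lentivirus and left for 5 days, and all groups were cultured in medium with dexamethasone. Nothing in the labels said whether the libraries of a group came from separate cultures.

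Each deposited table covered the control libraries and the libraries of 1 hairpin. The value used for each gene was the authors' mean normalised count over those 6 libraries, with controls and knockdown pooled. These means carry no error and no value per library, and so none of the differences below could be tested. They say how much of each RNA the cells held, not how the knockdown changed it. The pooled means do not show the knockdown, and since the columns of the authors' own comparison were not used, it was not checked here. *Srrm2* had a mean of 3428 in the shRNA 1 table and 3759 in the shRNA 2 table, each a mix of control and knockdown libraries.

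Each hepatocyte marker was listed, *Trf* under 1 of its 2 gene identifiers. In the shRNA 1 table the highest was *Krt18* with a mean of 9848 and the lowest was *Apoa1* with 39.4, while the albumin gene *Alb* stood at 2151. *Ptprc*, a marker of blood cells, had a mean of 5.30, *Des* had 8.03 and *Col1a1* had 3.85, and *Pecam1*, an endothelial marker, was not listed. The means summed to 6.14e+06 over the 13424 genes of the shRNA 1 table and to 6.39e+06 over the 13478 genes of the shRNA 2 table. The depth of single libraries is unknown.

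hnRNPs coat nascent RNA in the nucleus and steer its splicing, export and stability. Most of them bind RNA through RNA recognition motifs or KH domains, and many act against the SR proteins that gather in NSs. The Rbm genes share only the RNA recognition motif. Among them are spliceosome subunits, regulators of alternative splicing, and proteins of the exon junction complex, of RNA decay, of m6A methylation and of the nucleolus.

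The hnRNP genes form families of close paralogues, which the A/B-type genes illustrate. The next lines show 90 coding bases of the spliced transcripts of *Hnrnpa1* (chr15), *Hnrnpa2b1* (chr6) and *Hnrnpa3* (chr2), 45 on each side of the junction between exons 2 and 3, in the NCBIM37 (mm9) genome. They are shown because they bear on which reads can be assigned to 1 gene, and capitals mark bases that differ from *Hnrnpa1*.
Hnrnpa1: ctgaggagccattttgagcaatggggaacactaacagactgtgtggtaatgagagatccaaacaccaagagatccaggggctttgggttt
Hnrnpa2b1: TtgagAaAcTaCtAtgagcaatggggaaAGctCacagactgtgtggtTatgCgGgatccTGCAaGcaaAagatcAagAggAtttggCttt
Hnrnpa3: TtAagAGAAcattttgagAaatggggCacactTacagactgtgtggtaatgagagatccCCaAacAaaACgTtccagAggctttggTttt
*Hnrnpa2b1* differed from *Hnrnpa1* at 22 of these 90 bases and *Hnrnpa3* at 18. Over the whole transcripts the longest run of identical bases shared with *Hnrnpa1* was 18 bases for *Hnrnpa2b1* and 26 bases for *Hnrnpa3*. No 50-base window was therefore common to *Hnrnpa1* and either of these paralogues.

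Copies elsewhere in the genome were much closer than the paralogues. The *Hnrnpa1* line above recurred with 0 differences at chr9:123599134-123599223, inside the annotated pseudogene *Gm10052*. The *Hnrnpa3* line recurred with 0 differences at chr4:12160130-12160219, inside the pseudogene *Gm11847*. Both copies lacked the intron that separates these exons in the parent gene. The same held for *Hnrnpk*, which encodes a KH-domain protein that binds C-rich RNA, and for *Rbm10*, a regulator of alternative splicing. Their lines below are again 90 coding bases across an exon junction, with the second exon in capitals.
Hnrnpk, exons 4 and 5: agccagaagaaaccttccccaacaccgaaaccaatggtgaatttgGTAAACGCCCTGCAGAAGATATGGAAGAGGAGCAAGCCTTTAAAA
Rbm10, exons 16 and 17: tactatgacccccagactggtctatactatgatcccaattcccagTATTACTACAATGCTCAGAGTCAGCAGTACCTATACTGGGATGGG
In *Hnrnpk* the exons lie on the minus strand at chr13:58501694-58501738 and chr13:58501307-58501351, and all 90 bases stood together on the plus strand at chr7:90904427-90904516, in the gene model *Gm7964*. In *Rbm10* the exons lie at chrX:20225255-20225299 and chrX:20225383-20225427, and all 90 bases stood together on the minus strand at chr4:101720136-101720225, in the pseudogene *Gm12799*.

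hnRNP RNAs were abundant in these cells. To compare genes, each mean was divided by the length of the gene's longest coding transcript in kb, and levels below are on this scale and from the shRNA 1 table unless stated. The median level of the 18 hnRNP genes was 450 normalised counts per kb, that of the 33 Rbm genes 113, and that of all 12505 protein-coding genes found in both was 60.8. A mean count of at least 1000 in the shRNA 1 table was found for 12 of the 18 hnRNP genes, 4 of the 33 Rbm genes and 1304 of the 12505 coding genes. The hnRNP genes together held 0.471% of all normalised counts in the shRNA 1 table and 0.474% in the shRNA 2 table. The Rbm genes held 0.247% and 0.255%.

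The F/H hnRNPs, which bind runs of guanines, had both the highest and the lowest level among the hnRNP genes. *Hnrnpf* (chr6:117850358-117875639) stood at 1701 per kb, above 98.9% of coding genes, with a mean count of 4305 in the shRNA 1 table and 4605 in the shRNA 2 table. *Hnrnph1* followed at 499 per kb, and its X-linked relative *Hnrnph2* at 102. *Hnrnph3* (chr10:62477412-62486965) had the lowest level at 42.9 per kb, from mean counts of 94.9 and 108. It was also the only hnRNP gene with a mean count under 100.

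Of the A/B-type genes, which include well-known splicing repressors, *Hnrnpa1* stood at 952 per kb, *Hnrnpa2b1* at 779 and *Hnrnpa3* at 533. The intronless *Hnrnpa0*, whose product binds AU-rich elements, was lower at 131. Mean counts gave another order, with 3182 for *Hnrnpa2b1*, 2744 for *Hnrnpa3*, 1068 for *Hnrnpa1* and 350 for *Hnrnpa0*. The order per kb rests on the annotated untranslated regions. The longest coding transcript of *Hnrnpa1* is 1122 bases long and all coding, while that of *Hnrnpa2b1* has 1026 coding bases out of 4086 and that of *Hnrnpa3* 1074 out of 5150. Per kb of coding length *Hnrnpa1* stood at 952, against 3101 for *Hnrnpa2b1*, 2555 for *Hnrnpa3* and 381 for *Hnrnpa0*. *Hnrnpa2b1* stood above *Hnrnpa3* with either length.

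Among the other hnRNP genes, *Hnrnpk* reached 1050 per kb and *Hnrnpl*, which binds CA repeats, 718. *Hnrnpu*, which encodes the scaffold attachment factor SAF-A, stood at 828 per kb, with its relatives *Hnrnpul2* at 402 and *Hnrnpul1* at 346. *Hnrnpab* was found at 547 per kb, the uridine-tract binder *Hnrnpc* at 371, and *Hnrnpd*, whose product AUF1 takes part in the decay of AU-rich mRNAs, at 98.1. *Hnrnpm* stood at 188 per kb and *Hnrnpr* at 127, the latter from a mean count of 341. Relatives that this annotation names without the first n, *Hnrpdl* and *Hnrpll*, fell outside the symbol rule, and their levels were 239 and 102 per kb.

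Levels of the Rbm genes ran from 1.78 to 663 per kb. *Rbm3* (chrX:7716101-7723006), a cold-inducible RNA-binding protein, was the highest at 663, with mean counts of 1852 and 2147. *Rbm39*, a splicing factor related to U2AF, stood at 588 per kb. The third was *Rbm14*, a paraspeckle protein, at 528 per kb, a level that pools 2 parts of its gene model, as described below. The next was *Rbm5* at 262 per kb.

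The splicing-related Rbm genes ran from near the top of this order to its bottom. *Rbm5*, *Rbm10* and *Rbm6*, paralogues that regulate alternative splicing, stood at 262, 190 and 174 per kb. *Rbm17* was found at 158 per kb, *Rbm25*, which associates with the U1 snRNP, at 132, and *Rbm22*, a protein of the active spliceosome, at 117. *Rbmxrt*, a retrogene, stood at 173 per kb and its X-linked relative *Rbmx*, known as hnRNP G, at 82.0. *Rbmx2* reached 8.10 per kb from mean counts of 14.1 and 17.6. *Rbm20*, which controls titin splicing in heart muscle, was the lowest member at 1.78 per kb, with mean counts of 11.8 and 15.4. These were the only members with a mean count under 20 in the shRNA 1 table.

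Rbm genes of RNA decay, stability and editing, apart from *Rbm3*, lay mostly in between. *Rbm47*, a cofactor of mRNA editing, stood at 236 per kb, *Rbm26* at 148, *Rbm7*, a subunit of the nuclear exosome targeting complex, at 124, and *Rbm27* at 113. *Rbm38* was lower at 42.7 per kb, from a mean count of 88.5. In the m6A writer complex *Rbm15* stood at 83.6 per kb. The 2 genes named *Rbm15b* lie next to each other on chr9. The first (ENSMUSG00000045365.7, chr9:106786316-106789331) stood at 63.6 per kb and the second (ENSMUSG00000074102.2, chr9:106783260-106784620) at 37.6. *Rbm8a*, the Y14 subunit of the exon junction complex, was found at 54.6 per kb. The nucleolar genes *Rbm28*, *Rbm19* and *Rbm34* had levels of 114, 62.3 and 33.1 per kb.

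Of the remaining Rbm genes, *Rbm45* and *Rbm18* stood at 127 and 114 per kb and *Rbm33* at 86.0. *Rbm12b*, *Rbm41*, *Rbm43* and *Rbm12* lay between 23.4 and 40.0 per kb, and *Rbm43* had a mean count of 55.1.

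**Figure D1:**
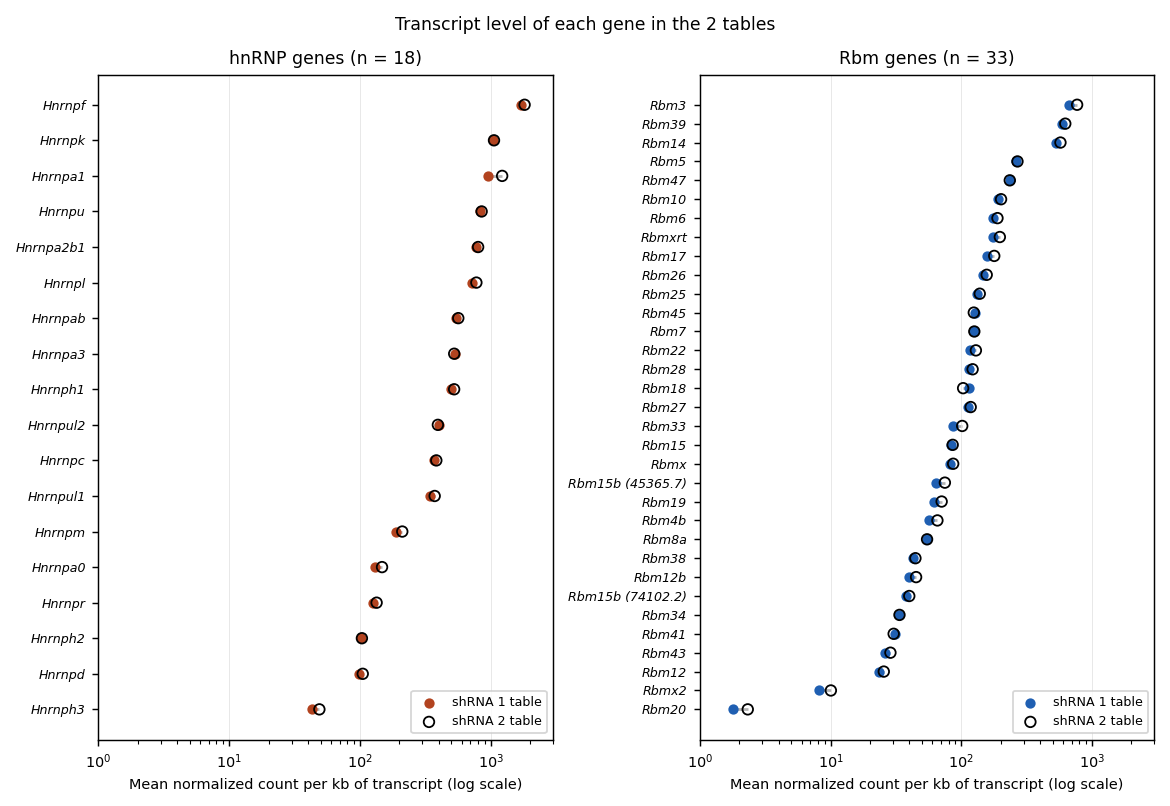
Level of each of the 18 hnRNP genes (left) and 33 Rbm genes (right) as the authors' mean normalised count per kb of longest coding transcript, on a log axis. Filled points are the shRNA 1 table and open points the shRNA 2 table, each a mean over 6 pooled libraries with no error; the hnRNP genes run from 42.9 to 1701 and the Rbm genes from 1.78 to 663 in the shRNA 1 table.

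Other RNA-binding proteins gave a scale for these levels. The 29 genes of this kind that were listed in both tables, among them the PTB, PCBP, MBNL and CELF proteins, had a median level of 186 per kb, between the hnRNP and the Rbm medians. *Hnrnpf*, *Hnrnpk* and *Hnrnpa1* were each above the highest of these 29.

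The hairpins were compared through the ratio of the shRNA 2 table's mean to the shRNA 1 table's mean. The tables were normalised separately, so each log2 ratio was centred on the median, 0.07, over the 11451 genes whose means reached 10 in each table. The series has a single control group of 3 libraries, and it was assumed that the same control libraries enter both means. The study's methods do not state this, and the description labels of some control libraries name further hairpins. If the assumption holds, the ratio lies between 1 and the fold between the hairpin groups, apart from scaling. It is then nearer to 1 than that fold.

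No member had a centred log2 ratio beyond 0.32 in either direction. The count was 0 of 51 higher in the shRNA 2 table, where 3.88% of all 11451 genes were higher, and 0 of 51 lower, where 4.41% were lower. The median centred log2 ratio was 0.0053 for the hnRNP genes and 0.017 for the Rbm genes. Ratios within 0.1 of 0 were found for 15 of the 18 hnRNP genes, 22 of the 33 Rbm genes and 50.4% of the 11099 coding genes whose means reached 10 in each table. The spread of this ratio over all genes was wider at low means. Its 5th and 95th percentiles were -0.25 and 0.16 for the 1309 genes with a mean of at least 1000, -0.27 and 0.22 for the 6534 genes from 100 to 1000, and -0.37 and 0.44 for the 3608 genes from 10 to 100. Most hnRNP genes had higher means than most other genes, and the counts above were not matched for this.

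*Hnrnpa1* had the highest ratio among members with means of at least 100, with mean counts of 1068 and 1375 and a centred log2 ratio of 0.29. This lay at the 99.2nd percentile of the 1309 genes with a mean of at least 1000. Its paralogues had log2 ratios of -0.03 for *Hnrnpa2b1* and -0.09 for *Hnrnpa3*. Since only pooled means are at hand, it is not known how far the libraries within a group differed for *Hnrnpa1*. In the same exons 84.2% of the 50-base windows also occur elsewhere in the genome, and their part in this ratio was not tested.

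The next in order were *Rbm33* with a log2 ratio of 0.17 and mean counts of 817 and 965, the first *Rbm15b* gene with 0.16 and mean counts of 192 and 226, and *Rbm3* with 0.14. At the other end, *Rbm18* had a log2 ratio of -0.21, with mean counts of 298 and 270, and lay at the 8.45th percentile of the 6534 genes of similar mean. *Hnrnpul2* and *Rbm41* both had -0.10, and *Rbm45* had -0.09. The largest ratio of all members was 0.31 for *Rbm20*, and *Rbmx2* had 0.24, both at mean counts under 20.

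Paralogues can be set side by side. *Rbm5*, *Rbm6* and *Rbm10* had log2 ratios of -0.04, 0.05 and 0.01, *Rbm26* and *Rbm27* 0.01 and -0.01, and *Hnrnph1*, *Hnrnph2* and *Hnrnpf* 0.00, -0.05 and 0.02. The fourth F/H gene, *Hnrnph3*, had 0.12. *Rbmx* and *Rbmxrt* had 0.01 and 0.11. *Rbm15* had -0.03, against 0.16 for the first *Rbm15b* gene and 0.02 for the second. *Hnrnpu*, *Hnrnpul1* and *Hnrnpul2* had -0.03, 0.04 and -0.10. The values were 0.03, -0.02 and -0.01 for *Hnrnpd*, *Hnrnpab* and *Hnrpdl*, and 0.04 and 0.08 for *Hnrnpl* and *Hnrpll*. The other RNA-binding proteins had a median of 0.05, and 1 of the 29 was beyond 0.32. This was *Ptbp2*, named here after its value was seen, with mean counts of 220 and 354.

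**Figure D2:**
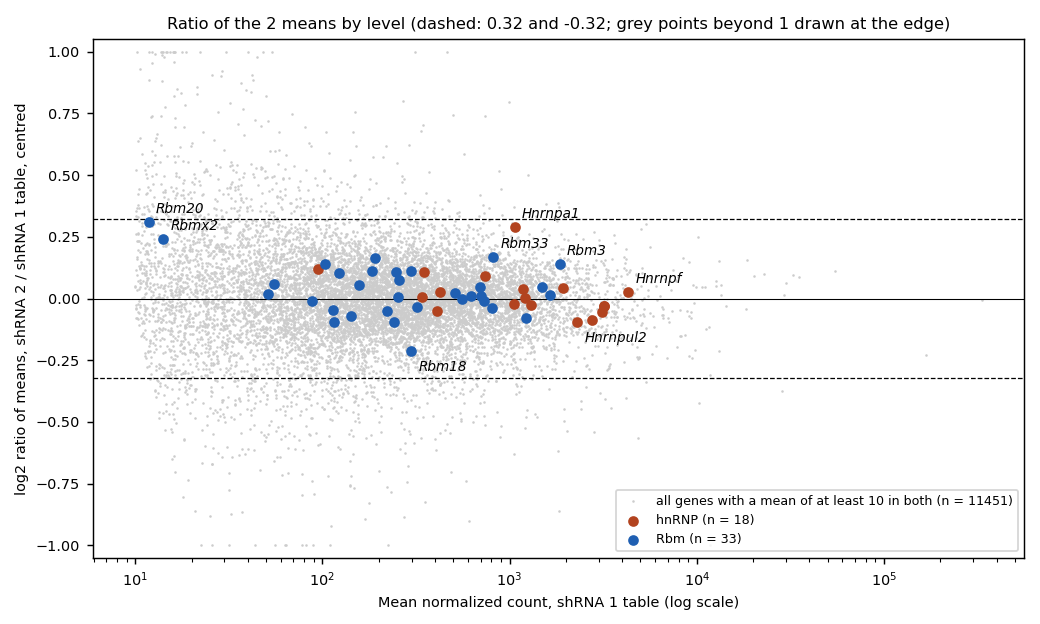
Centred log2 ratio of the shRNA 2 table's mean to the shRNA 1 table's mean, against the mean normalised count in the shRNA 1 table on a log axis, for the 11451 genes whose means reached 10 in each table (grey), the 18 hnRNP genes (red) and the 33 Rbm genes (blue). All 51 members lie between the dashed lines 0.32 above and below 0, and *Hnrnpa1*, at 0.29, stands apart from the other hnRNP genes.

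The closeness of genomic copies bears on these values, because the authors kept only reads that mapped to 1 place. A read, or read pair, that fits more than 1 place was not counted, so a level here covers the unique part of a gene's exons while being divided by the whole length. To score this, 50-base windows were taken from the exons of each gene's longest coding transcript, so repeats in its other exons were missed. The share given is that of windows found more than once in the genome. It was over 20% for 7 of the 18 hnRNP genes and 6 of the 33 Rbm genes. It was over 20% for 9.72% of all coding genes in both tables and for 1 of the 29 other RNA-binding proteins. The read length is not given in the sources used here, and these counts depend on the window. With 100-base windows the share was over 20% for 4 of the 18 hnRNP genes, 3 of the 33 Rbm genes and 6.19% of the coding genes.

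The most repeated members included some of the most abundant. The share was 88.2% for *Hnrnpa3*, 84.2% for *Hnrnpa1*, 79.9% for *Rbmxrt*, 77.2% for *Hnrnpf* and 62.5% for *Rbm12b*. It was 43.5% for *Rbm10*, 39.0% for *Hnrnpr*, 38.9% for *Hnrnpk*, 27.7% for *Hnrnph2* and 25.5% for *Hnrnpc*. Windows of 100 bases gave lower shares. They were 75.9% for *Hnrnpa3*, 78.3% for *Hnrnpa1*, 61.8% for *Rbmxrt*, 69.5% for *Hnrnpf* and 53.4% for *Rbm12b*, but 16.8% for *Rbm10*, 20.7% for *Hnrnpr*, 14.4% for *Hnrnpk*, 14% for *Hnrnph2* and 9.32% for *Hnrnpc*. With 50-base windows the share was 3.47% for *Hnrnpa2b1* and 3.06% for *Rbmx*. The levels of *Hnrnpa1* and *Hnrnpa2b1*, or of *Rbmxrt* and *Rbmx*, were thus not counted over equal parts of the transcripts.

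For 16 members, 8 of each family, at least 1 other place in the genome matched 100 or more of these windows, and for 9 of the 16 such a place lay over an annotated pseudogene. *Hnrnpa3* had 35 of these places, the largest being *Gm11847* at chr4:12159929-12165171 with 4019 windows. *Hnrnpf* had 7, and *Gm12435* at chr4:48356469-48358156 matched 1391 of its windows. The largest match of *Rbm12b* was the neighbouring coding gene *C430048L16Rik* at chr4:12019670-12022794, with 1617 windows. Only the members were searched for such places, so the counts of 16 and 9 have no share over all coding genes beside them.

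Another match was inside the set itself. The annotation used holds no gene named *Rbm4*, but 364 windows of *Rbm4b* (chr19:4756525-4765938, plus strand) matched chr19:4792398-4792810, which lies in exons of *Rbm14* on the minus strand. The last 90 bases of the second exon of *Rbm4b*, at chr19:4757580-4757669, are shown because all of them recur there without a difference, at chr19:4792398-4792487.
Rbm4b: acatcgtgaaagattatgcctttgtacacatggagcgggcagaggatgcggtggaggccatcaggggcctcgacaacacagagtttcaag
The *Rbm14* gene model has 7 transcripts. Of these, 2 lie at chr19:4784299-4793877, where the match to *Rbm4b* is, 4 lie at chr19:4800925-4811634, and 1 joins the parts. The level of *Rbm14* therefore pools reads from both parts and is uncertain as a level of either. *Rbm4b* itself stood at 56.7 per kb, with 22.3% of its 50-base windows and 21.9% of its 100-base windows repeated.

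Other members shared exon bases with a neighbouring gene. All exon bases of the second *Rbm15b* gene lie opposite exons of *Vprbp*, as do 75.5% of those of *Hnrnph3* opposite *Rufy2*, 26.9% of those of *Hnrnpab* opposite *Agxt2l2* and 25% of those of *Rbm19* opposite *Gm10390*. On the same strand, 33.0% of the exon bases of *Rbm12* are shared with *Cpne1* and *Nfs1*, and 24.8% of those of *Hnrnpm* with *March2*. The libraries were made to keep strand, but whether the counting used it is not given in the sources used here, so the levels of these genes are uncertain.

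**Figure D3:**
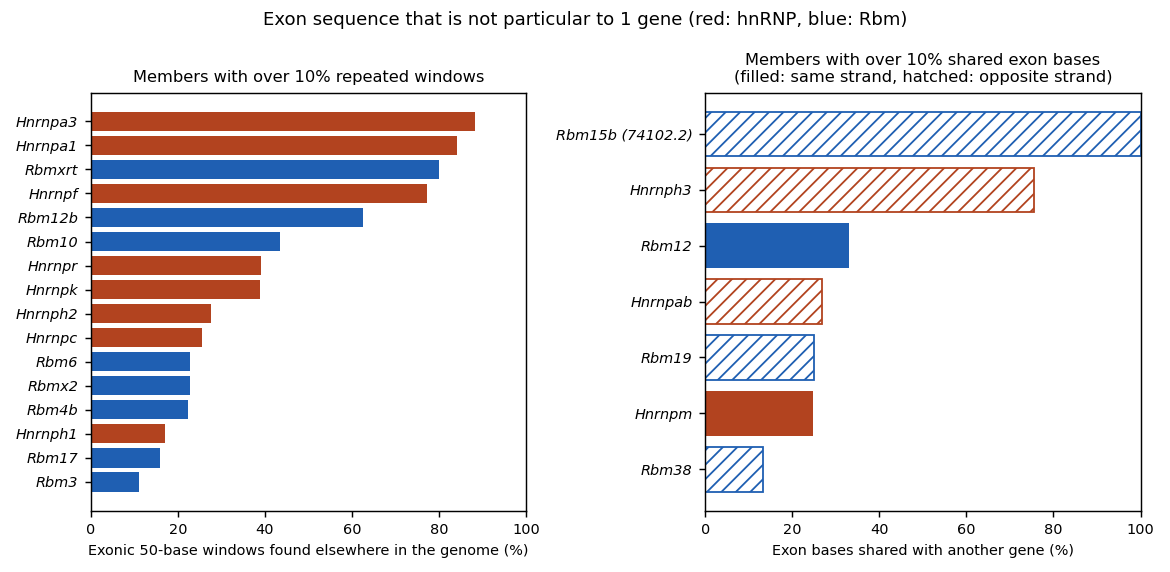
Left, percent of 50-base windows in the exons of the longest coding transcript that occur elsewhere in the genome, for members with over 10%. Right, percent of exon bases shared with another gene on the same strand (filled) or the opposite strand (hatched), for members with over 10%; hnRNP genes are red and Rbm genes blue, and *Hnrnpa3* and the second *Rbm15b* gene head the panels with 88.2% and 100%.

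Not all genes of these families were listed in both tables, and why a gene was left out is not known. Of the 57 protein-coding genes that met the symbol rule, 51 were in both tables. *Rbm11*, *Rbm24*, *Rbm44*, *Rbm46* and *Rbmxl2* were in neither table. *Rbm42* (chr7:31426013-31435336) appeared only in the shRNA 1 table, with a mean count of 2.37, and 75.2% of its exon bases are shared with *Haus5* on the same strand. The lowest members inside the set were *Rbm20* and *Rbmx2*, described above.

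The annotation also lists transcripts that are targets of nonsense-mediated decay (NMD), a fate through which several splicing regulators limit their own mRNA. Such a transcript was annotated for 4 of the 18 hnRNP genes and 6 of the 33 Rbm genes, beside 16.1% of all coding genes in both tables. *Rbm39* had the most, with 8 of its 26 transcripts. *Hnrnpd* had 4 among 12 transcripts. Transcripts with a retained intron were annotated for 6 of the 18 hnRNP genes, 8 of the 33 Rbm genes and 33.5% of the coding genes, and *Hnrnpl* had 7 among its 15 transcripts. The means sum over all transcripts of a gene, so the share of any of these forms cannot be read from them.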

How the data were processed

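RNA from 9 AML12 libraries (3 per group, day 5) was sequenced. By the study's methods the libraries were polyA-enriched and strand-specific. The authors aligned reads with TopHat2 (mm9), retained those with a unique position, used HTSeq to count them per GENCODE M1 gene, and ran DESeq2 1.8.2 on hairpin against control libraries. For each gene the deposited tables hold the authors' mean normalised count, a signal pooled over controls and hairpin. They also hold the log2 fold change, its standard error, the statistic, the p-value and the adjusted p-value, which are the authors' own comparison and were not used. Counts per library were not used here.

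Symbols, lengths and overlaps came from GENCODE M1, and 50-base windows were searched on both strands of the NCBIM37 genome, unplaced contigs included, with Python 3.11.15, numpy 2.4.6 and pandas 2.3.3. The scripts were tested on simulated data. No statistical test was made. The members and lists were chosen with earlier results of these data known, and the searches for gene overlaps, NMD transcripts and copies after these tables were seen.

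Named were the 10 hnRNP and 10 Rbm genes of highest level, the 3 and 5 of lowest mean, the 4 highest and 4 lowest ratios at means of at least 100, and paralogue sets. The rest were named to account for every member. The names of the highest other RNA-binding proteins are not reported here.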

Additional observations from a re-analysis of the deposited data

How the results depend on the processing

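Only pooled means were used, so no replicate could be left out and no sampling error given. No paired analysis was possible because the tables hold no value per library. Levels depend on the length used. With all exons merged the median level was 350 per kb for hnRNP and 76.8 for Rbm genes, with coding length 990.1 and 207, and without the 19 members that have over 20% shared or repeated exon sequence, a choice made after seeing the data, 450 and 114. *Hnrnpf* and *Rbm3* stayed highest with each length, and of the 10 highest at least 8 hnRNP and 6 Rbm genes were shared with the lists above. The share of counts was 0.504% and 0.264% of coding genes only, and 0.537% and 0.281% without the 10 highest genes.

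The median log2 ratio was 0.020 (hnRNP) and 0.032 (Rbm) when scaled by summed means. It was 0.0096 and 0.021 when centred on genes with means of at least 100, and 0.0039 and 0.015 with no minimum mean. At means of at least 100 it was 0.0077 and 0.017, and without the 19 members 0.015 and 0.0020. These medians were all above 0 but small, and they carry no error. In the main setting 10 hnRNP genes lay above 0 and 8 below, and 21 Rbm genes above and 12 below. At 1.1-fold 7 members were higher and 1 was lower, beside 17.8% and 18.2% of all genes, and at 1.5-fold the counts were 0 and 0. Scaled by summed means, 1 member, *Rbm20*, passed a log2 ratio of 0.32. With 100-base windows the median repeated share fell from 4.08% to 0 for hnRNP and from 1.09% to 0 for Rbm genes. The number of genes with a repeated share over 20% fell from 7 to 4 hnRNP and from 6 to 3 Rbm genes.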
